A study of Homo sapiens with 3 samples.

Results

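The human placental alkaline phosphatase family was followed in the RNA of a cell line in which the ubiquitin ligase HRD1 was depleted. Its members are ALPP (placental), ALPPL2 (germ cell, now called ALPG), ALPI (intestinal) and ALPL (tissue-nonspecific). Each was found as 1 row by gene name, so 4 of the 58243 genes in each deposited table belong to it. The family was chosen by the values of ALPP in these same libraries, which were lower at both later times, so its differences between times are a description and carry no test.

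The study used LoVo cells, a line labelled as colon epithelium, with a Tet-On short hairpin RNA, switched on by doxycycline, against HRD1. HRD1 is encoded by SYVN1 and works in endoplasmic reticulum-associated degradation. All 3 groups carried this inducible knockdown and differed in exposure to doxycycline, at 1 µg/ml for 0, 3 or 5 days, and the labels do not say whether the cells were 1 clone. Among the samples analysed here no group lacked the hairpin and none had doxycycline alone, so the drug and the knockdown cannot be told apart. With 1 library per time there was no replicate to set a difference against and no test was made. Both later libraries were compared with the same day 0 library. In these bulk samples, fewer cells that express a gene and less RNA per cell cannot be told apart.

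Alkaline phosphatases are enzymes on the outer face of the cell membrane that remove phosphate groups from their substrates at high pH. They enter the endoplasmic reticulum while being made and are held at the surface by a glycosylphosphatidylinositol (GPI) anchor added there. ALPP is made in large amounts by the syncytiotrophoblast of the placenta and appears out of place in some tumours and tumour lines. ALPPL2 is found in testis and in germ cell tumours, ALPI in the brush border of enterocytes, and ALPL in bone, liver and kidney, where it breaks down the mineralisation inhibitor pyrophosphate.

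ALPP, ALPPL2 and ALPI lie side by side on chromosome 2 and share their exon structure, while ALPL is on chromosome 1. On GRCh38, ALPP (ENSG00000163283) spans positions 232378534 to 232382889 of chromosome 2, on the plus strand. ALPPL2 (ENSG00000163286, 232406843 to 232410714) starts 24.0 kb after the end of ALPP, and ALPI (ENSG00000163295, 232456123 to 232460032) starts 73.2 kb after it, both on the plus strand. ALPL (ENSG00000162551) spans positions 21509372 to 21578412 of chromosome 1, also on the plus strand. In GENCODE 29 the coding sequences of ALPP and ALPPL2 were identical at 1561 of 1596 aligned bases (97.8%), those of ALPP and ALPI at 89.7%, and those of ALPP and ALPL at 65.5%. The longest run shared exactly by ALPP and ALPPL2 was 339 coding bases, from exon 8 to exon 10, and included the whole of exon 9.

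Only reads over bases that differ can tell such genes apart. Of all stretches of 75 bases in the ALPP transcript, 17.2% also occurred in an ALPPL2 transcript and 0.0345% in an ALPI transcript. Of stretches of 150 bases, 7.05% occurred in ALPPL2 and 0 of 2822 in ALPI. No stretch of 50 bases was shared with ALPL.

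**Figure D1:**
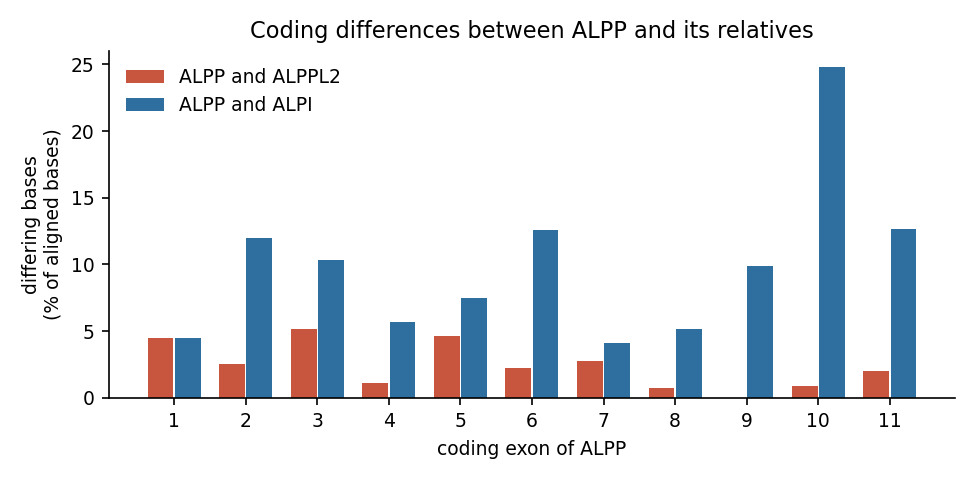
Percentage of aligned coding bases (vertical axis) that differ from ALPP in each of its 11 coding exons (horizontal axis), for ALPPL2 (red bars) and ALPI (blue bars), from GENCODE 29 transcripts. ALPPL2 has no difference in exon 9, and the largest share for ALPI is in exon 10, where 29 of 117 bases differ.

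Because of this likeness, levels are given from unique reads, those that the authors' counting placed at a single position. The day 0, day 3 and day 5 libraries held between 19003207 and 22549242 unique gene reads, which were 87.6% to 89.2% of all gene reads. Levels are given as CPM, unique reads scaled to the library total and a TMM factor, and between genes as TPM, formed from unique exon reads and exon length. Square brackets give 95% exact intervals, which cover counting error only. SYVN1, the targeted gene, had 1210, 646 and 704 unique reads at day 0, day 3 and day 5, and its log2 ratios to day 0 were -0.89 [-1.03 to -0.75] and -1.05 [-1.18 to -0.91], the direction given by the labels. Most of the listed markers did not bear out the labelled colon epithelial identity. EPCAM stood at 0.74 to 0.83 TPM, CDH1 at 0.0674 to 0.272 TPM and CDX2, the intestinal master regulator, at 0 reads in each library. Of 17 colorectal epithelial genes, 4 reached 1 TPM in each library, with KRT8 and KRT18 abundant at 465 to 589 TPM, whereas 10 of 14 mesenchymal genes did so, among them VIM at 2309 to 2659 TPM.

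ALPP was the only member present at more than a few reads. It had 387 unique reads at day 0, 129 at day 3 and 228 at day 5. As normalised CPM these were 20.2 [18.2 to 22.3], 6.79 [5.67 to 8.07] and 9.90 [8.66 to 11.3]. The day 0 library was the highest and the day 3 library the lowest. On the per-length scale the levels were 28.6, 8.78 and 13.9 TPM. Of 19818 protein-coding genes, those without reads included, 72.0% had a lower TPM than ALPP at day 0, 57.3% at day 3 and 61.4% at day 5. ALPP thus went from an upper-middle rank to near the middle. Protein-coding genes with a unique read numbered 14968, 15130 and 15442, and ALPP ranked 5549, 8453 and 7647 from the top.

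At day 3 ALPP stood at 33.7% [27.4% to 41.2%] of where it began (log2 ratio -1.57 [-1.87 to -1.28]). At day 5 it stood at 49.1% [41.5% to 57.9%] (log2 ratio -1.03 [-1.27 to -0.79]). After correction for exon length and GC the day 5 value was -0.92, short of 2-fold. The ALPP transcript has 62.1% GC, against a median of 48.7% over measured genes. Between day 3 and day 5 the level was 1.46-fold higher [1.17 to 1.82], a log2 ratio of 0.54 [0.23 to 0.87]. ALPP was thus lowest at day 3 and stood between the day 0 and day 3 levels at day 5. A higher level at day 5 than at day 3 was not seen for SYVN1. Its day 5 over day 3 log2 ratio was -0.15 [-0.31 to 0.0026], an interval that includes no change.

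**Figure D2:**
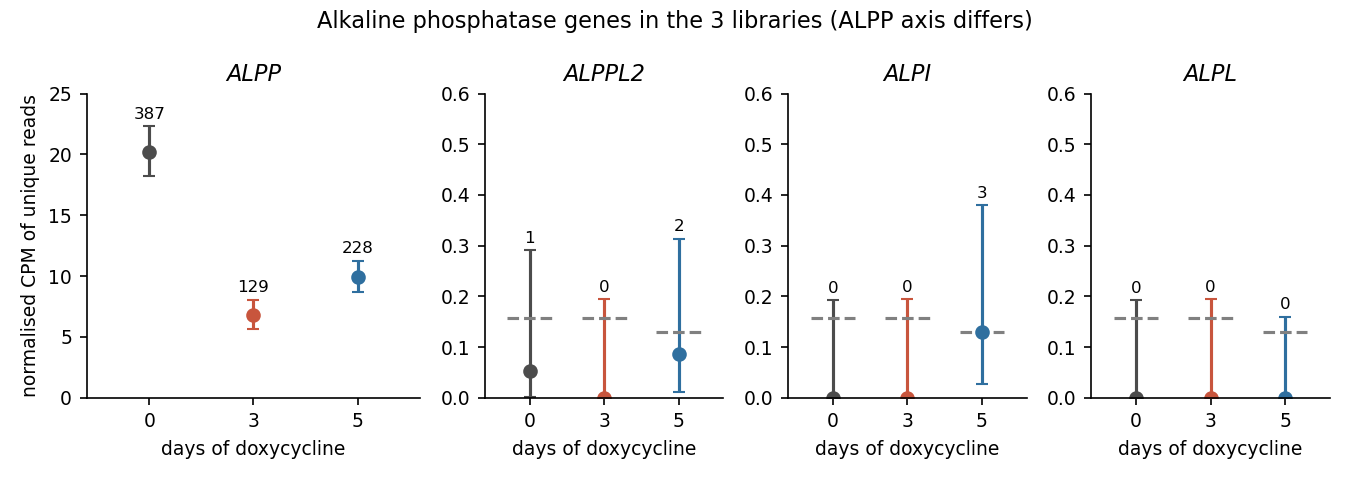
Normalised CPM of unique reads (vertical axis, larger range for ALPP) against days of doxycycline (horizontal axis) for the 4 family genes, 1 library per time, with 95% exact Poisson intervals and the number of unique reads above each point. Dashed lines mark the level of 3 reads, at or below which every point of ALPPL2, ALPI and ALPL lies, while ALPP ranges from 129 to 387 reads.

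The ALPP reads came from spliced, uniquely placed transcript. Of its unique exon reads, 276 of 387 (71.3% [66.5% to 75.8%]) spanned an exon junction at day 0, 90 of 129 (69.8% [61.1% to 77.5%]) at day 3 and 155 of 228 (68.0% [61.5% to 74.0%]) at day 5. These shares differed by less than their intervals, and over all genes the shares were 68.3%, 69.2% and 65.6%. Junction reads alone gave log2 ratios of -1.60 [-1.96 to -1.25] at day 3 and -1.09 [-1.39 to -0.81] at day 5, close to those from all its unique reads, which include them. No read fell in the 1297 intronic bases of ALPP in any library. At day 0, with 387 unique reads, the intronic share of ALPP was 0% [0% to 0.949%], against 4.70% over all genes in that library. These shares are not like for like, since ALPP has 1297 intronic and 3059 exonic bases and genes differ in this balance. An antisense gene inside ALPP, AC068134.1, had 0 reads in each library, but nothing in the labels says that counting used strand, so sense and antisense reads could not be told apart.

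Reads that could belong to more than 1 gene were few for ALPP. They numbered 11, 4 and 6 at day 0, day 3 and day 5, and 97.2% [95.1% to 98.6%], 97.0% [92.5% to 99.2%] and 97.4% [94.5% to 99.1%] of its reads were unique. When all reads of ALPP and ALPPL2 were added together, so that the split between them played no part, the pair had 399, 134 and 236 reads. The log2 ratios of the pair to day 0 were then -1.55 [-1.85 to -1.27] at day 3 and -1.04 [-1.28 to -0.80] at day 5.

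ALPPL2, the nearest relative of ALPP, was at the edge of detection. It had 1, 0 and 2 unique reads at day 0, day 3 and day 5, which is at or under the 3 reads that a count of 0 allows, so no ratio between times was formed. Its level was 0.0905 TPM at day 0 and 0.150 TPM at day 5, and at day 3 a count of 0 allows up to 0.250 TPM. Per length, ALPP stood 315-fold above ALPPL2 at day 0 [56.3 to 12489], at least 35.0-fold above it at day 3 with 3 reads per library as the floor, and 92.9-fold above it at day 5 [25.4 to 772]. The intervals of day 0 and day 5 overlap, so a change in this ratio was not detectable at this depth.

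ALPI, the enterocyte enzyme, had 0 unique reads at day 0 and at day 3 and 3 at day 5, of which 2 spanned an exon junction. The day 5 level was 0.212 TPM, and a count of 0 allows up to 0.257 TPM at day 0 and 0.237 TPM at day 3, so a difference was not detectable. Reads of other intestinal, liver and blood genes also appeared in the day 5 library. The 25 brush border genes held 124, 105 and 396 unique reads in all at day 0, day 3 and day 5, and 18, 15 and 4 of them were at 0. CDHR5, a brush border cadherin, had 69, 38 and 71 unique gene reads, but 0.70, 0.32 and 0.34 TPM from exon reads. Its day 5 over day 0 log2 ratio ran from -1.03 to -0.10 under other processing. FABP2, an intestinal fatty acid binding protein, had 0, 0 and 32 reads, and APOA1, an apolipoprotein of gut and liver, had 0, 2 and 61. Among 15 liver genes, 8, 9 and 1 were at 0, and their summed level was 891, 741 and 819 TPM, nearly all of it SERPINA1, a protease inhibitor that stood at 890, 740 and 782 TPM. ALB, the chief plasma protein, had 0, 0 and 114 reads. The 10 blood genes held 7, 29 and 80 reads in all, with 5, 2 and 1 at 0. The part of these transcripts in the ALPI reads was not tested.

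ALPL, the bone, liver and kidney enzyme, had 0 reads of any kind in each library, which allows up to 0.225, 0.208 and 0.186 TPM. Per length, ALPP was at least 127-fold, 42.3-fold and 74.7-fold higher than ALPL at day 0, day 3 and day 5, with the floor of 3 reads per library. Of 16 osteoblast genes, which include ALPL, 3 reached 1 TPM in each library, RUNX2 and COL1A1 among them, while IBSP, a matrix protein of bone, had 0 reads. RUNX2, a regulator of bone formation, stood at 7.88, 7.55 and 8.49 TPM.

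Across the series, differences as large as that of ALPP were rare. A mean of 50 unique reads or more was reached by 11805 genes. Of these, 26 (0.22%) were at least 2-fold lower at day 3 and 18 (0.152%) at day 5, with an interval that leaves out a ratio of 1, and 6 (0.0508%) and 12 (0.102%) were at least 2-fold higher. ALPP was among the lower genes at both times, as the only family member with enough reads to be counted. Since it was chosen for this difference, nothing is read from its place. One gene had a lower day 3 ratio than ALPP, the calpain CAPN8 at -1.98 [-2.73 to -1.33], with 93, 23 and 120 reads. At day 5, 16 genes lay below ALPP, and SYVN1 was the nearest of them. From day 3 to day 5, a level at least 2-fold higher was found for 20 genes (0.169%) and a lower one for 19 (0.161%). At 1.5-fold these numbers were 222 (1.88%) and 165 (1.4%). ALPP, at 1.46-fold, was in none of these counts, but it passed 1.5-fold with the authors' TPM (log2 ratio 0.61), without TMM (0.61) and with length and GC trends removed (0.75). The median log2 ratio over all 11805 genes was 0.01 at both times.

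The genes whose pair of log2 ratios lay nearest to that of ALPP were sought among 8562 named protein-coding genes with at least 90% unique reads. This likeness rests on 2 ratios from 3 libraries that share the day 0 library. Of the nearest 5 genes, 4 are described. PECAM1, an endothelial adhesion molecule with 159, 74 and 115 reads, lay at -1.08 [-1.51 to -0.68] at day 3 and -0.73 [-1.09 to -0.38] at day 5, but its ratios were -0.42 [-1.15 to 0.28] and -0.32 [-0.99 to 0.34] from exon reads and so were not detectable with them. The interleukin gene IL15 (-1.02 [-1.65 to -0.43] and -0.76 [-1.31 to -0.22]), SYVN1 itself and the transcription factor gene ATOH8 (-0.87 [-1.45 to -0.33] and -0.80 [-1.33 to -0.29]) lay further off in that order. These 4 were less far from the day 0 level at day 3 than ALPP was. Since ALPP was chosen for its lower ratios, nothing is read from this. PECAM1 and IL15 remained among the nearest 5 when distances were taken over centred levels in the 3 libraries.

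**Figure D3:**
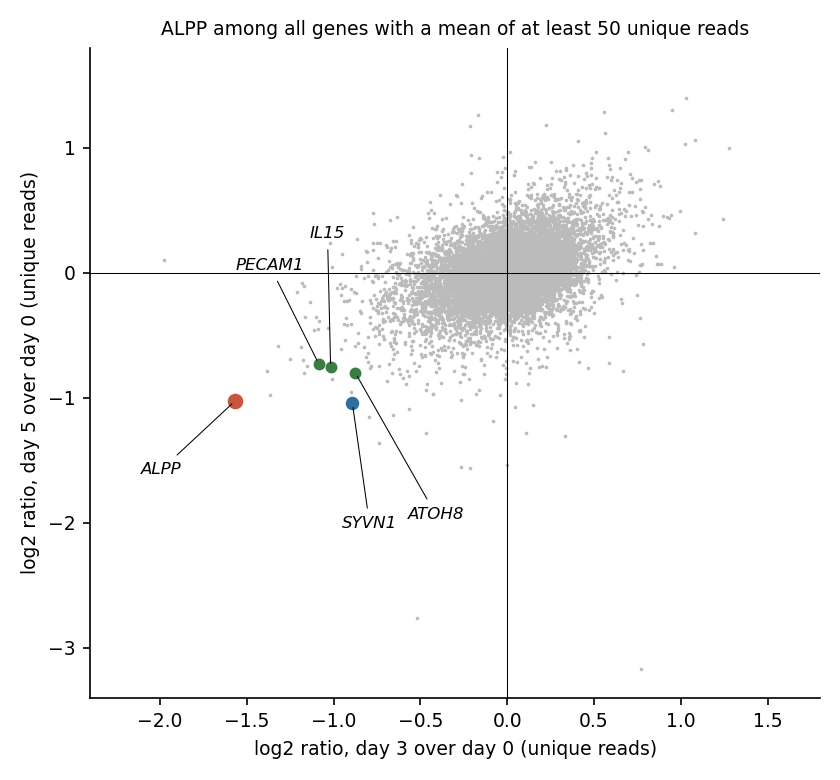
Log2 ratio of unique reads at day 3 over day 0 (horizontal axis) against day 5 over day 0 (vertical axis) for 11805 genes (grey points), with ALPP in red, SYVN1 in blue and PECAM1, IL15 and ATOH8, which are among the nearest 5 to ALPP, in green. Both axes share the day 0 library, so a slope is built in, and ALPP lies at -1.57 and -1.03 at the lower left edge of the cloud.

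The chromosomal neighbours of ALPP were mostly without reads. Of 19 other genes within 200 kb, 9 had no unique read in any library, 6 had between 1 and 16 over the 3 libraries together, and 4 had a mean of at least 50. The nearest of the 4, DIS3L2, an exoribonuclease gene whose end lies 34.2 kb before ALPP, had 1158, 1166 and 1407 reads and log2 ratios of 0.02 [-0.10 to 0.14] at day 3 and 0.02 [-0.10 to 0.13] at day 5. On the other side, TIGD1 had -0.04 [-0.50 to 0.42] and -0.09 [-0.53 to 0.36], and the cap-binding protein gene EIF4E2, with 60.2% unique reads, had 0.14 [0.01 to 0.26] and 0.05 [-0.07 to 0.17], with no difference at day 3 by the authors' TPM. The antisense gene AC073254.1 had 0.31 [-0.12 to 0.74] and 0.10 [-0.33 to 0.53]. Since ALPP was chosen for its lower ratios, nothing is read from its distance to these 4. CHRNG, a subunit of the muscle acetylcholine receptor, had 9, 3 and 4 reads and its partner CHRND had 2, 0 and 1, while the endopeptidase gene ECEL1 and the protease gene PRSS56 had 0.

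**Figure D4:**
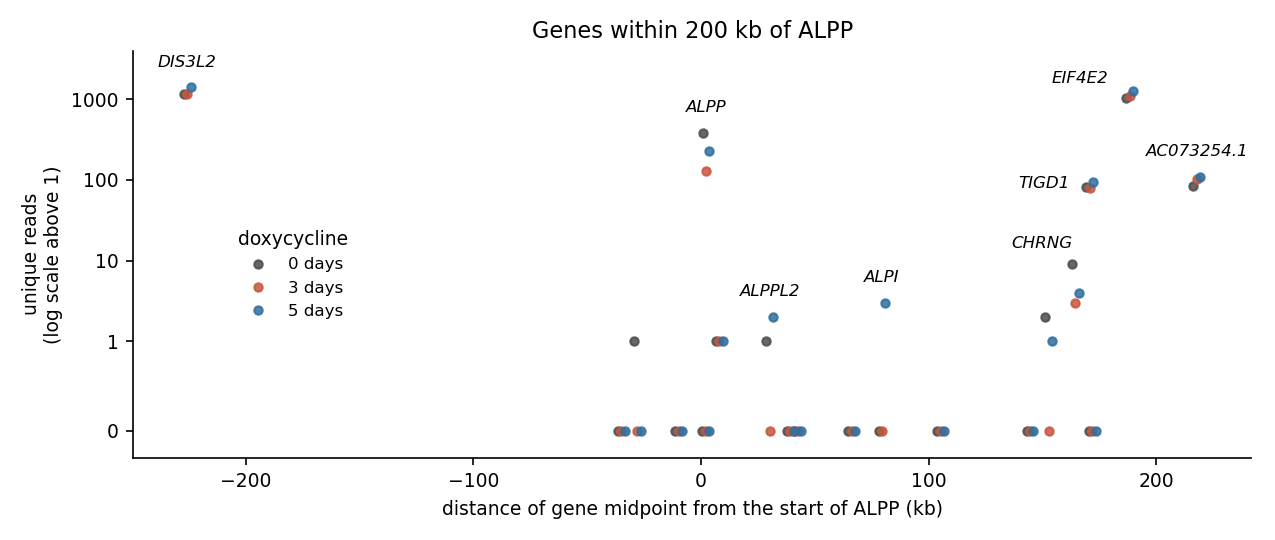
Unique reads (vertical axis, logarithmic above 1) of ALPP and the 19 other genes within 200 kb of it, against the distance of each gene's midpoint from the start of ALPP in kb (horizontal axis), with 1 point per library. ALPP stands among genes at 0 to 9 reads, and the 4 measured neighbours, DIS3L2, TIGD1, EIF4E2 and AC073254.1, plot toward the ends of the axis. DIS3L2 is long, so its midpoint lies outside the window although its end is 34.2 kb from ALPP.

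The stretches before the transcription start were compared because ALPP and ALPPL2 differ so much in level. In the RefSeq windows (GRCh38.p14) of 250 bases before the start, ALPP and ALPPL2 were identical at 216 of 244 aligned bases (88.5%) and ALPP and ALPI at 71.5%. All 3 held the letters TTTAAA once, which read the same on both strands and occur in 11.3% of 35116 such windows. They lay 30, 30 and 28 bases before the RefSeq start of ALPP, ALPPL2 and ALPI. The RefSeq starts (232378751, 232406844 and 232456153) lie 217, 1 and 30 bases after the gene starts given above, which are GENCODE's, so in the GENCODE models the letters fall inside the first exon of ALPP and of ALPI. The element is printed with its flanks, in capitals, at chr2:232378709-232378738, chr2:232406802-232406831 and chr2:232456113-232456142, plus strand.
ALPP: agttctccctgaTTTAAAcccgggcagcct
ALPPL2: agttttccctgaTTTAAAcccaggcagcct
ALPI: gtcctcccctgaTTTAAAcccaggcagcct
The GC box GGGCGG, searched on both strands as were the motifs that follow, was found once in the windows of ALPPL2 and ALPI and not in that of ALPP, against 42.6% of all windows. Neither CCAAT (32.0% of all windows), TGACGTG (1.68%), which ATF6 and XBP1 can bind, nor TGATGNAA (3.14%), of the kind that ATF4 binds, occurred in the windows of ALPP, ALPPL2 or ALPI. CCACG, the end of the ER stress element (33.5%), occurred once in the ALPI window and in neither of the other two on chromosome 2. In these motifs the windows of ALPP and ALPPL2 differed only in the GC box. Of the 3 RefSeq windows of ALPL, one held TATAAA once, 4 GC boxes and CCACG once, another held CCACG 3 times and the last held TGATGNAA once.

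The genes that build and attach the GPI anchor were compared with ALPP because the enzyme needs them. Of 28 listed genes, 26 were measured, and 0 of them were 1.5-fold higher or lower at day 3 or at day 5, against 1.06% higher and 2.12% lower of all genes at day 3, and 1.29% and 1.25% at day 5, so a count of 0 among 26 is near the background. Their median log2 ratio was 0.03 at day 3 (-0.073 to 0.040 under other processing) and -0.05 at day 5. PIGA, which starts anchor synthesis, had 370, 372 and 522 reads and log2 ratios of 0.02 [-0.19 to 0.23] and 0.23 [0.04 to 0.43]. Of the transamidase, which joins the anchor to the protein, GPAA1 had 0.07 [0.01 to 0.14] and -0.27 [-0.34 to -0.20] and PIGK, its catalytic subunit, had -0.02 [-0.13 to 0.09] and 0.15 [0.05 to 0.25]. Among the larger ratios, PIGQ, of the first enzyme complex, stood at -0.46 [-0.60 to -0.32] at day 5 (-0.27 with length and GC trends removed), and DPM3, of dolichol-phosphate mannose synthesis, at 0.43 [0.23 to 0.64] at day 3. PIGP, also of the first complex, had 0.43 [0.03 to 0.83] at day 5, while PIGW, an inositol acyltransferase gene with 10.9% unique reads, had -0.44 [-0.89 to -0.00] at day 5.

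Genes of other proteins with the same anchor were compared in the same way. Of 75 listed genes, 26 were measured, and 0 were 1.5-fold different at day 3, where 1.06% of all genes were higher and 2.12% lower. At day 5, where these shares were 1.29% and 1.25%, 1 was 1.5-fold lower, RTN4RL2, a Nogo receptor relative with 72.0% unique reads, at -0.85 [-1.37 to -0.36], and 0 were higher. The list median was 0.05 at day 3 (-0.06 with the authors' TPM) and -0.06 at day 5. NT5E (CD73), which like alkaline phosphatase strips phosphate from nucleotides outside the cell, was the most abundant of them at 695, 565 and 621 TPM, with -0.17 [-0.20 to -0.13] and -0.16 [-0.19 to -0.12]. The complement inhibitors CD55 (0.03 and 0.07) and CD59 (-0.05 and -0.14) and the prion protein gene PRNP (0.19 and 0.03) differed little. RTN4R, another Nogo receptor, had 0.46 [0.17 to 0.74] at day 3, and EFNA4 and NEGR1 had -0.53 [-1.11 to 0.04] and -0.51 [-1.09 to 0.07] at day 5, with 59.5% and 48.8% unique reads.

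The next list holds genes that handle the substrates and products of these enzymes. Of 24 phosphate, pyrophosphate, nucleotide and vitamin B6 genes, 15 were measured and 0 were 1.5-fold different at either time, with medians of -0.04 and -0.07. For so few genes a count of 0 is near the share of all genes, 1.06% higher and 2.12% lower at day 3 and 1.29% and 1.25% at day 5. ENPP1, which makes the pyrophosphate that alkaline phosphatase splits, had -0.16 [-0.33 to 0.00] and -0.08 [-0.24 to 0.08]. The phosphate importer SLC20A1 had -0.17 [-0.22 to -0.13] and -0.03 [-0.08 to 0.01], and PDXK, which phosphorylates vitamin B6, had 0.07 [-0.01 to 0.14] and -0.08 [-0.15 to -0.01]. The largest ratios were those of ADA, adenosine deaminase, at 0.44 [0.08 to 0.80] at day 3, and of PDXP, a pyridoxal phosphatase with 17.9% unique reads, at -0.40 [-0.76 to -0.05] at day 5. The acid phosphatase genes ACP1 and ACP2 had 0.27 [0.20 to 0.35] and -0.24 [-0.41 to -0.07] at day 5.

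**Figure D5:**
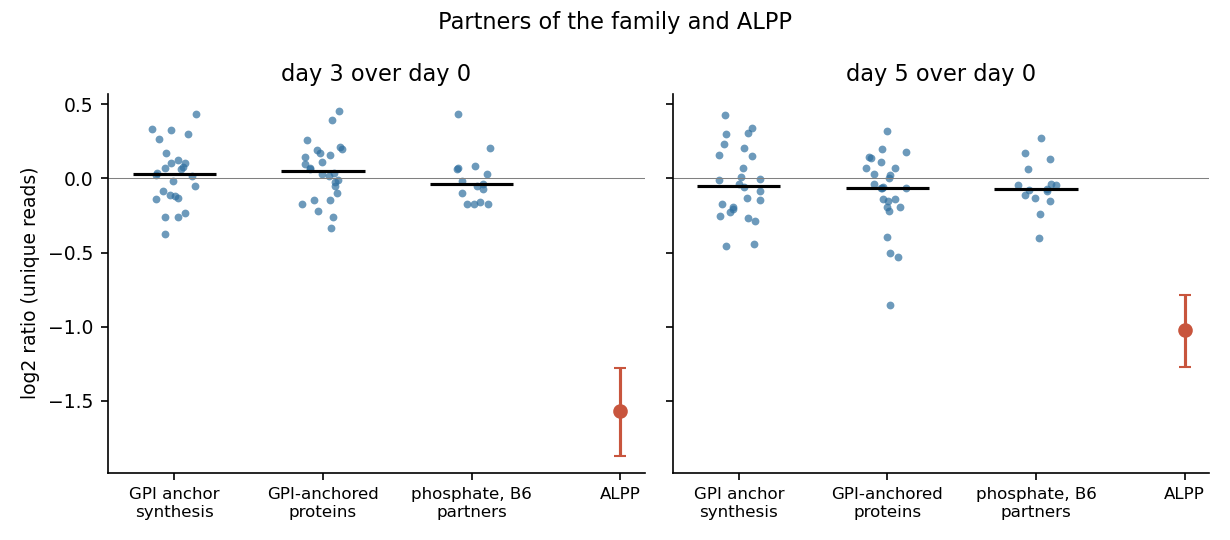
Log2 ratio of unique reads (vertical axis) at day 3 (left) and day 5 (right) over day 0 for measured genes of 3 lists (blue points, 26, 26 and 15 genes, black bar at the median) and for ALPP with its 95% exact interval (red). The ALPP point lies below the point of every listed gene in both panels, with RTN4RL2 nearest at day 5, where their intervals overlap. Since ALPP was chosen for its lower ratios, nothing is read from its place.

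Of 37 trophoblast and placenta genes, 26, 25 and 23 were at 0 reads at day 0, day 3 and day 5, among them CGA, the shared subunit of chorionic gonadotropin, in each library, and 5 reached 1 TPM in each. The summed level of the list was 76.7, 67.2 and 79.0 TPM, and most of it was TFAP2C, a transcription factor of trophoblast and other epithelia, at 61.4, 47.0 and 59.2 TPM. TFAP2C had log2 ratios of -0.22 [-0.36 to -0.07] and -0.01 [-0.14 to 0.12], and TFAP2A had -0.24 [-0.67 to 0.18] and 0.05 [-0.33 to 0.44]. GATA3, another trophoblast regulator, had 0.09 [-0.30 to 0.48] and 0.06 [-0.31 to 0.43]. PAPPA2, a placental protease, had 30, 41 and 42 reads. CGB8, a chorionic gonadotropin beta gene with 50% unique reads, had 13, 28 and 34 reads, below the minimum mean of 50. Its log2 ratios were 1.09 [0.12 to 2.19] and 1.09 [0.16 to 2.17], the opposite direction to ALPP. The related CGB7 had 21, 16 and 24 reads, with -0.37 [-1.41 to 0.63] and -0.08 [-0.98 to 0.85], and CGB5 had 4, 4 and 1. The part of these genes in the ALPP values was not tested. The germ cell list, fitting ALPPL2, held 1 measured gene of 16, TFCP2L1, at 1.93, 1.73 and 2.25 TPM. Of the intestinal regulators, KLF4 had 0.18 [0.08 to 0.27] and 0.24 [0.15 to 0.33], KLF5 had -0.18 [-0.34 to -0.02] and 0.07 [-0.08 to 0.21] and GATA6 had -0.05 [-0.31 to 0.22] and -0.01 [-0.26 to 0.24]. The gut and liver factors HNF4G and HNF4A had fewer reads. HNF4G had 39, 22 and 42, with -0.80 [-1.64 to -0.02] at day 3 and -0.16 [-0.82 to 0.51] at day 5. HNF4A had 18, 11 and 9, with -0.67 [-1.93 to 0.46] and -1.23 [-2.60 to -0.04].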

How the data were processed

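RNA-seq was compared in 3 libraries, 1 per time. RNAiso Plus was used to isolate RNA and a SMARTER kit to build the libraries, per the labels. Per the file headers, the deposited tables hold read counts for each gene (total and unique, split into exon, exon-exon and intron reads), the authors' TPM and exon lengths. Which aligner and counting tool were used is not given in the sources used here. Per the submitters' processing notes the build was mm10, that of the mouse, whereas the gene identifiers are human, and coordinates are from GENCODE 29 (GRCh38). A further table with 3 sample columns was not used.

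Unique gene reads (19003207, 19559795 and 22549242 at day 0, day 3 and day 5) were scaled by TMM (1.01, 0.971 and 1.02; edgeR 4.0.16, R 4.3.3). Ratios had a prior count of 0.5 and exact conditional (Clopper-Pearson) 95% intervals, shares had exact Clopper-Pearson intervals and counts exact Poisson intervals. A count of 0 allows 3 reads (0.156, 0.158 and 0.130 CPM). No molecular identifiers are mentioned, and intervals and floors reflect counting error alone. Genes with a mean of at least 50 unique reads were measured, and counted at 2-fold or 1.5-fold where the interval excluded 1. Python 3.11.15, scipy 1.17.1 and Biopython 1.88 were used, and scripts were tested on simulated data.

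The members and lists were chosen with earlier results of these data known. Genes were named by rule: the members, SYVN1, genes within 200 kb of ALPP, the 5 genes nearest to it in both ratios, and per list up to 4 measured genes with the largest ratios, or those with the most reads where fewer than 4 were measured. Genes named for their role or for a size beyond this rule, such as PIGA, GPAA1, PIGK, NT5E, CD55, CD59, PRNP, ENPP1, SLC20A1, PDXK, CAPN8, FABP2, CGA, CDX2, EPCAM, CDH1, VIM, IBSP, CGB8 and HNF4A, were added after their values were seen. Alternatives were total or exon reads, the authors' TPM with 0.5 added, no TMM, size factors from DESeq2 1.42.0, a prior count of 5, TMM without mitochondrial and the 20 most abundant genes, removal of length and GC trends, and other gene filters. Some genes that the rule names are not reported here.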

Additional observations from a re-analysis of the deposited data

How the results depend on the processing

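The log2 ratio of ALPP stayed within its counting interval under 9 alternatives, from -1.67 to -1.54 at day 3 over day 0, from -1.05 to -0.92 at day 5 over day 0 and from 0.52 to 0.75 at day 5 over day 3. Summing ALPP and ALPPL2 was chosen after the data were seen. ALPPL2, ALPI and ALPL gave no ratio because of their 0 to 3 reads. No paired analysis was possible because each time had 1 library, and no library could be left out.

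Counts of genes moved with the filter on reads, by its construction. With a minimum mean of 10, 200 or no reads, the genes at least 2-fold lower numbered 203, 3 and 360 at day 3 over day 0 (26 with the minimum of 50), 140, 7 and 313 at day 5 over day 0 (18), and 124, 6 and 262 at day 5 over day 3 (19). At least 1.5-fold lower were 475, 76 and 632 (250), 337, 34 and 510 (148), and 324, 64 and 462 (165) in the same order. At least 1.5-fold higher were 284, 34 and 388 (125), 353, 48 and 518 (152), and 519, 53 and 712 (222). Total reads gave 57 genes 2-fold lower at day 3 and 28 at day 5. The authors' TPM gave 14, 9 and 3 genes 2-fold lower in the 3 comparisons. It gave 81 and 33 genes 1.5-fold lower at day 5 over day 0 and over day 3. At day 3 and day 5 over day 0 it gave 39 and 98 genes 1.5-fold higher. For these counts the TPM ratio was paired with the interval of the unique-read ratio. Exon reads gave 101 genes 1.5-fold lower at day 5 over day 3, and library totals without TMM gave 354 genes 1.5-fold higher there. Protein-coding genes alone gave 12 and 165 genes 2-fold and 1.5-fold lower at day 3. Genes with at least 90% unique reads gave 164, 81 and 58 genes 1.5-fold lower in the 3 comparisons, 10 and 7 genes 2-fold lower at day 5 over day 0 and over day 3, and 147 genes 1.5-fold higher at day 5 over day 3.

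The median of GPI-anchored proteins at day 3 was -0.056 with the authors' TPM, against 0.05. That of the GPI anchor synthesis genes at day 3 ran from -0.073 to 0.040 over the alternatives, against 0.03. EIF4E2 at day 3 was at -9.0e-05 with the authors' TPM, against 0.14, and KRT18 at day 5 was at 0.014 with total reads and 0.0024 with exon reads, against -0.09. Of the 5 genes nearest to ALPP, 3 were shared under the other measure of likeness. Apart from the filter, the cause of these shifts was not tested.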
